A study of Sus scrofa with 18 samples.

Results

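ISG15 and 5 genes that work with it in the interferon response, USP18, IRF7, STAT2, GBP1 and GBP2, were followed across 18 piglet retinas. They were chosen by name: every probe set with 1 of these symbols as its only gene symbol in the platform annotation was taken, and the brightest probe set stood for its gene. The 6 genes, of 6765 with a probe set of their own in the file, had 9 probe sets, of which 7 passed the filter on low levels and 2 did not. The choice was made with the variation of interferon genes between these retinas already known, so their spread and their covariation are given as descriptions without a test. Only the differences between diets were tested. The retinas came from male Landrace x Large White piglets at postnatal day 38, enrolled at 3 days of age. A first group of 9 had been fed pig milk replacer with sialyllactose, a milk sugar that carries sialic acid, and a second group of 9 the pig milk replacer alone (control). Every array held biotin-labelled RNA of 1 sample on an Affymetrix pig array. The sample titles number the replicates without naming the piglet or the litter, so p-values measure the spread between these samples.

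Interferons are secreted when cells sense viral or misplaced nucleic acid. Type I interferon binds a receptor made of IFNAR1 and IFNAR2, the kinases JAK1 and TYK2 activate STAT2, and a complex that holds STAT2 and IRF9 switches on interferon-stimulated genes. ISG15 is one of the most strongly induced of these genes and encodes a ubiquitin-like protein that is attached to other proteins. USP18 removes ISG15 from its targets and also blocks signalling at the IFNAR2 receptor chain, so it acts as feedback. IRF7 is a transcription factor that amplifies interferon production, and GBP1 and GBP2 are guanylate-binding GTPases that are induced by interferon gamma in particular and take part in defence within the cell.

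ISG15 differed widely from retina to retina on either diet. Its log2 value had a minimum of 2.85, a median of 3.33 and a maximum of 8.02 in sialyllactose retinas, against 2.83, 4.20 and 6.47 in control retinas. The highest retina, sialyllactose replicate 7, stood 36.6-fold above the lowest, control replicate 9, on the linear scale. Sialyllactose replicate 4 followed at 7.56, and sialyllactose replicates 3 and 1 were at 5.80 and 4.73. In the control group replicates 3, 6, 8 and 5 were high, at 6.47, 6.41, 5.53 and 5.23. The other sialyllactose retinas lay between 2.85 and 3.33 and the other control retinas between 2.83 and 4.20, so both groups held low and high retinas and overlapped over most of their range. In whole retina, more cells making a transcript and more transcript per cell cannot be told apart. The SD of ISG15 between retinas of the same diet was 1.74, higher than that of 99.99% of the 16799 tested probe sets, whose median SD was 0.156.

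USP18, which removes ISG15 from proteins, was high in the same retinas. Its minimum, median and maximum were 2.79, 3.53 and 5.57 in sialyllactose retinas, against 2.83, 3.72 and 5.77 in control retinas (log2). The highest value belonged to control replicate 3, followed by sialyllactose replicates 7 (5.57) and 4 (5.36), and the lowest to sialyllactose replicate 9. The span from lowest to highest retina was 7.89-fold, and the SD within diets was 0.970. Over the 18 retinas, with each diet's mean taken off, Pearson's r with ISG15 was 0.929 and Spearman's rho 0.862. USP18 was higher by 0.52 log2 units for each log2 unit of ISG15. The r was 0.972 in the 9 sialyllactose retinas and 0.897 in the 9 control retinas, and it lay between 0.910 and 0.944 with any 1 array left out. The largest departure from the common line was that of control replicate 3, whose USP18 lay 0.81 log2 units above it.

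IRF7, the transcription factor that drives interferon production, was dim and varied less. Its brighter probe set had a minimum, median and maximum of 1.96, 2.33 and 2.88 in sialyllactose retinas, against 2.04, 2.23 and 2.64 in control retinas (log2). Sialyllactose replicates 4, 7 and 5 were highest at 2.88, 2.85 and 2.81, and sialyllactose replicate 6 was lowest. Replicates 4 and 7 were also the 2 retinas with the most ISG15, whereas replicate 5 had ISG15 at 3.33 and lay 0.48 log2 units above the common line, the largest departure of this gene. The r of IRF7 with ISG15 was 0.690 (rho 0.695), with 0.748 in sialyllactose retinas and 0.548 in control retinas. It was 0.819 without sialyllactose replicate 5 and 0.467 without sialyllactose replicates 7 and 4, the arrays farthest from the ISG15 median, so the relation was weaker without those retinas. The slope was 0.11 log2 units per log2 unit of ISG15. IRF7 lay at percentile 22.6 of the tested levels, where RMA can compress differences. GBP1 lay at percentile 22.8, with an SD within diets of 1.16 and values from 1.26 to 4.48. The SD of IRF7 was 0.27, above that of 93.2% of the tested probe sets, with values from 1.96 to 2.88. The part of the low level in the smaller spread of IRF7 beside GBP1 was not tested. The suffix of the IRF7 probe set (_s_at) marks probes that can match more than 1 transcript. The second IRF7 probe set was dimmer still, with a mean of 0.84, did not pass the level filter and had an r of -0.037 with ISG15 and of -0.115 with the brighter one.

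STAT2, the partner of IRF9 in the complex that reads the type I interferon signal, was nearly level. It had a minimum, median and maximum of 4.68, 5.15 and 5.33 in sialyllactose retinas, against 4.77, 5.02 and 5.29 in control retinas (log2). All 18 retinas lay within 1.57-fold, and the gene was brighter than 72.0% of the tested probe sets. Its SD within diets was 0.202, above that of 77.2% of the tested probe sets. The r with ISG15 was 0.469 (rho 0.494), and an r of at least 0.4 was found in 4.66% of the tested probe sets. Its slope was 0.05 log2 units per log2 unit of ISG15. Sialyllactose replicate 7 was highest in STAT2 as it was in ISG15, but sialyllactose replicate 2 at 5.27 and control replicate 7 at 5.29 were close to it with ISG15 at 3.07 and 4.20. Without sialyllactose replicates 7 and 4 the r was 0.332.

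GBP1 moved with ISG15 by the steepest slope of the 5 genes, and GBP2 did so less. GBP1 had a minimum, median and maximum of 1.27, 1.70 and 4.48 in sialyllactose retinas, against 1.26, 1.98 and 4.14 in control retinas (log2). Sialyllactose replicates 4 and 7 (4.48 and 3.64) and control replicates 6, 3 and 5 (4.14, 4.03 and 3.98) stood well above the other 13 retinas, of which control replicate 8 was highest at 2.65. The highest retina was 9.36-fold above the lowest. The r with ISG15 was 0.907 (rho 0.808), with 0.932 in sialyllactose retinas and 0.937 in control retinas, and the slope was 0.61. Control replicate 5 lay farthest from the common line, 1.07 log2 units above it. The other 2 GBP1 probe sets were dimmer, with means of 2.13 and 1.36, of which the last did not pass the level filter, and their r with ISG15 was 0.844 and 0.734. Their r with the brightest GBP1 probe set was 0.936 and 0.790.

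GBP2, which lies next to GBP1 in the RefSeq gene table with no annotated gene between them, had a minimum, median and maximum of 2.98, 3.53 and 4.30 in sialyllactose retinas, against 3.45, 3.75 and 4.14 in control retinas (log2). Sialyllactose replicates 4 and 7 were again highest at 4.30 and 4.27, and sialyllactose replicate 5 was lowest. The span was 2.50-fold, and the SD within diets was 0.36, above that of 97.4% of the tested probe sets. Control replicate 3, with the third highest ISG15, had GBP2 at 3.56, below the control median, while sialyllactose replicate 9, with ISG15 at 3.17, had GBP2 at 3.90. The r with ISG15 was 0.674 (rho 0.585) with a slope of 0.14, and it was 0.321 without sialyllactose replicates 7 and 4. Between GBP1 and GBP2 the r was 0.672. Such closely related genes can share probes, which was not tested.

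**Figure D1:**
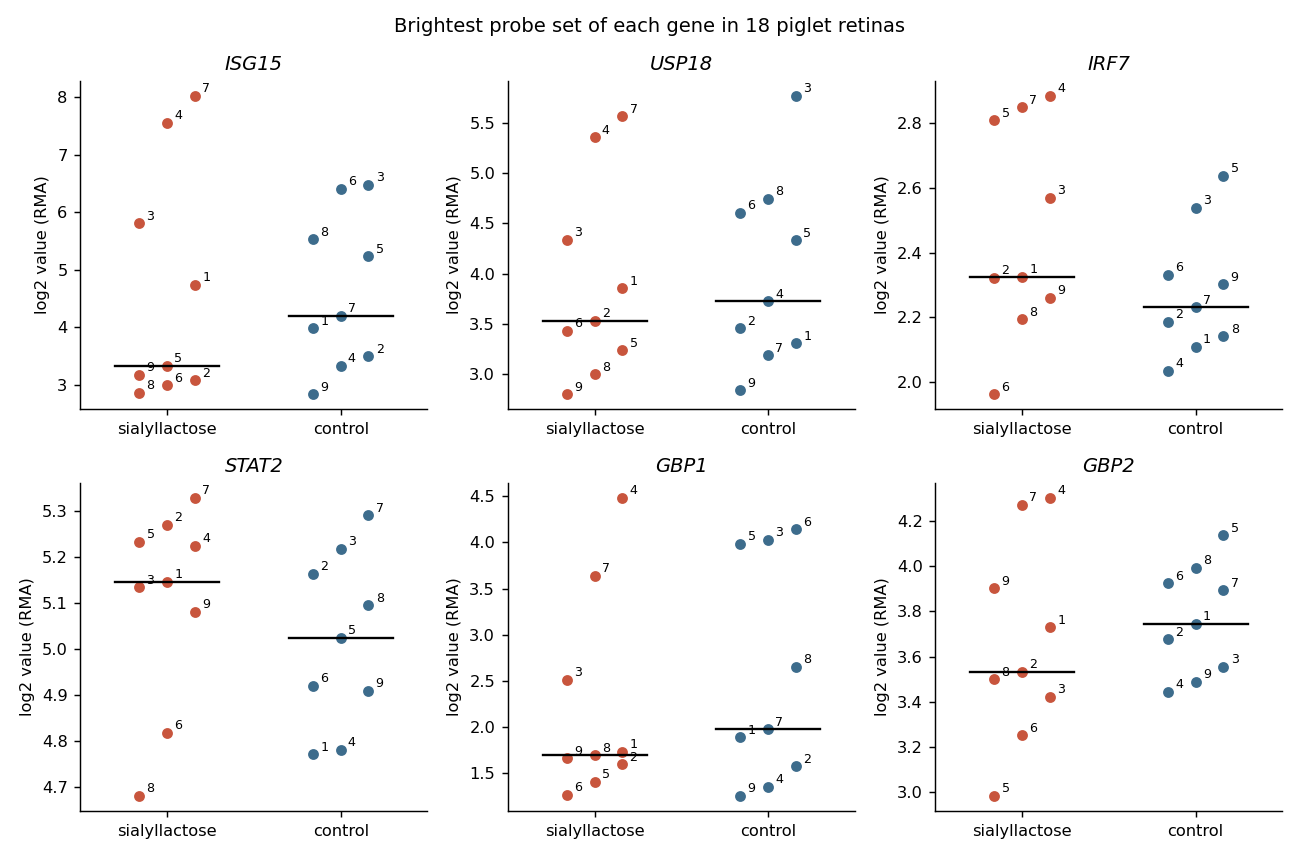
Log2 value of the brightest probe set of each gene (y axis) in 9 sialyllactose and 9 control retinas; each point is a retina marked with its replicate number, and the black line is the median. ISG15, USP18 and GBP1 span 5.19, 2.98 and 3.23 log2 units over the 18 retinas, against 0.65 for STAT2; each panel has its own y scale.

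Set side by side, 2 of the 5 genes, USP18 and GBP1, had an r with ISG15 of at least 0.8, a level reached by 0.316% of the other tested probe sets (53 of 16798). IRF7 at 0.690 and GBP2 at 0.674 came next, where 0.863% of the tested probe sets had an r of at least 0.6, and STAT2 was last. None of the 5 fell between -0.3 and 0.3, where 78.2% of the tested probe sets lay. Since the genes were picked from this pattern, nothing is read from these shares. Among the 15 pairs of the 6 genes, USP18 with GBP1 reached 0.864 and IRF7 with GBP1 0.713, while STAT2 with GBP2 had the lowest r at 0.327. STAT2 had its highest r with IRF7, at 0.60, not with ISG15. The 18 retinas shared by all these values are the only points behind them.

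**Figure D2:**
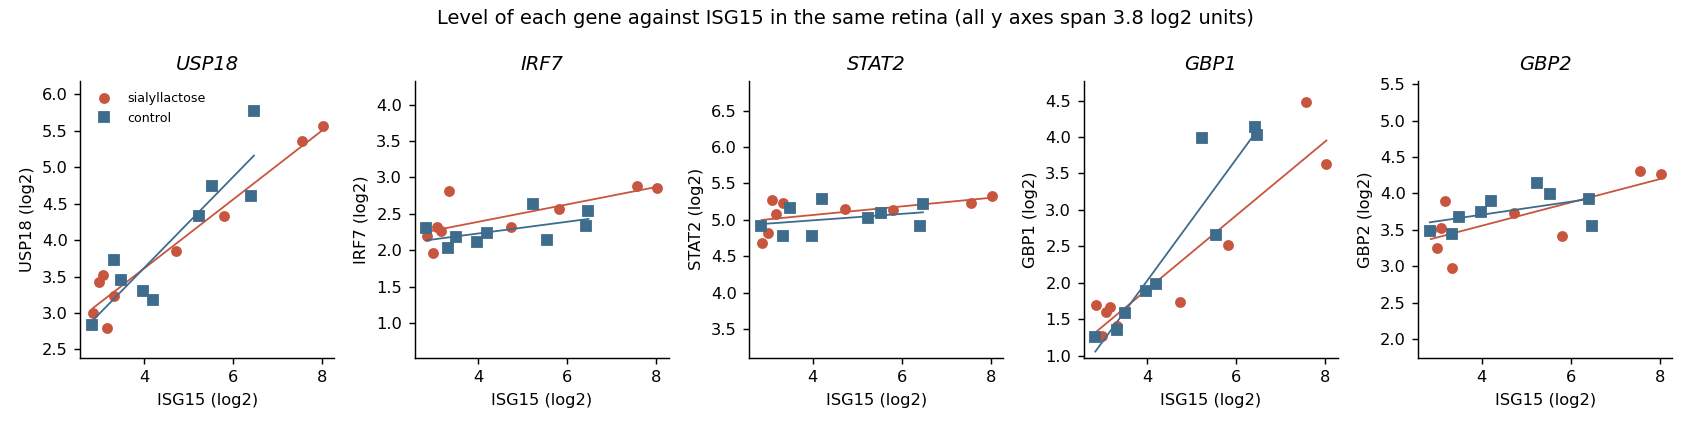
Log2 value of each gene (y axis) against ISG15 (x axis, log2) in the same retina, with circles for sialyllactose and squares for control retinas and a least-squares line per diet. All y axes span the same number of log2 units, so that the slopes of 0.52 for USP18 and 0.61 for GBP1 can be seen beside those of 0.11 for IRF7, 0.05 for STAT2 and 0.14 for GBP2.

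The first test asked whether the 6 genes differed in level between the diets, and none did beyond the spread between retinas. Of the 16799 tested probe sets, 0 (0%) passed limma's adjusted threshold of 0.05 and 1059 (6.3%) had an unadjusted p under it. None of the 9 probe sets of these genes had such an unadjusted p. ISG15 averaged 4.61 ± 2.05 in sialyllactose retinas and 4.61 ± 1.35 in control retinas (log2, SD, n = 9 each), a difference of 0.01 with a 95% interval of -1.49 to 1.50 and a limma adjusted p of 0.999. The interval is wide because the retinas of each diet were so unlike. USP18 averaged 3.90 ± 0.998 and 3.995 ± 0.941 in sialyllactose and control retinas, a difference of -0.10 (95% interval -0.93 to 0.74, limma adjusted p = 0.986).

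IRF7, the gene with the smallest p of the 6, averaged 2.46 ± 0.33 in sialyllactose retinas and 2.28 ± 0.20 in control retinas (log2, SD, n = 9 each). Its difference was 0.18 (95% interval -0.06 to 0.43, limma adjusted p = 0.834), and 7 of 9 sialyllactose retinas lay above the control median. STAT2 averaged 5.10 ± 0.22 in sialyllactose and 5.02 ± 0.19 in control retinas, a difference of 0.08 (95% interval -0.10 to 0.27, limma adjusted p = 0.910), likewise with 7 of 9 above the control median. The intervals of these less variable genes were narrower than those of ISG15, USP18 and GBP1. GBP1 averaged 2.22 ± 1.12 against 2.54 ± 1.20 in control retinas, with a difference of -0.32 (95% interval -1.32 to 0.68, limma adjusted p = 0.942). GBP2 averaged 3.66 ± 0.44 against 3.76 ± 0.24 in control retinas, with a difference of -0.11 (95% interval -0.42 to 0.21, limma adjusted p = 0.936). In both, 3 of 9 sialyllactose retinas lay above the control median. The GBP1 difference was -0.60 without sialyllactose replicate 4 and -0.12 without control replicate 6. GBP1's dimmest probe set had the opposite sign, at 0.10.

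The second test asked whether the retinas of one diet were more unlike each other than those of the other. The mean absolute deviation of ISG15 from its diet median was 1.56 in sialyllactose retinas and 1.11 in control retinas (log2), a difference of 0.45 (95% interval -0.78 to 1.67, limma adjusted p = 0.999). Without sialyllactose replicate 7 it was 0.05. For GBP2 the deviations were 0.34 in sialyllactose and 0.20 in control retinas, and for IRF7 0.26 and 0.15, while GBP1 had the wider spread in control retinas, at 0.71 in sialyllactose and 0.97 in control retinas. USP18 had 0.74 in both groups and STAT2 0.15 in both. None of the 6 genes passed, and of all tested probe sets 0 (0%) passed at a limma adjusted p under 0.05 and 454 (2.7%) at an unadjusted one. Since this fit passed no simulated difference of spread either, its lack of calls says little.

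The third test asked whether the genes followed ISG15 by the same amount on both diets. GBP1 had a slope of 0.51 log2 units per log2 unit of ISG15 in sialyllactose retinas and of 0.83 in control retinas, a difference of -0.33 (95% interval -0.58 to -0.07). That interval did not include 0, with an unadjusted limma p of 0.0139, but the difference did not pass over the table (limma adjusted p = 0.558, n = 9 each). An unadjusted p under 0.05 was found for 7.8% of the 16798 probe sets and an adjusted one for 0 of them (0%). The second GBP1 probe set had slopes of 0.20 and 0.34 in sialyllactose and control retinas. Its difference of -0.145 had a 95% interval that included 0, -0.296 to 0.006. The dimmest GBP1 probe set had slopes of 0.09 and 0.11, a difference of -0.03 (95% interval -0.13 to 0.08). The ISG15 range also differed, since no control retina lay above 6.47 while 2 sialyllactose retinas did. The slope of USP18 was 0.47 in sialyllactose and 0.63 in control retinas, with a difference of -0.15 (95% interval -0.36 to 0.06, limma adjusted p = 0.752), and of -0.0308 without control replicate 3. Those of IRF7 (0.12 and 0.08), STAT2 (0.06 and 0.04) and GBP2 (0.16 and 0.09) in sialyllactose and control retinas differed by 0.04, 0.01 and 0.07, with limma adjusted p-values between 0.876 and 0.977.

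**Figure D3:**
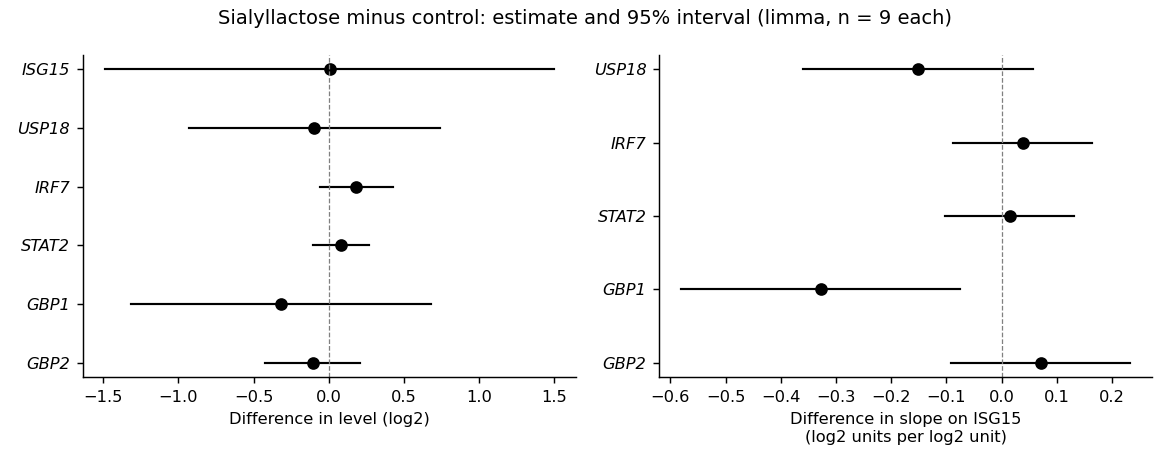
Sialyllactose minus control for the difference in log2 level (left) and in slope on ISG15 (right, log2 units per log2 unit), with limma estimates as points and 95% intervals as bars, n = 9 retinas each. Every interval on the left includes 0, and on the right only that of GBP1, -0.58 to -0.07, does not.

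None of the tested genes that carry the interferon signal from the cell surface had an r of 0.8 with ISG15, and their r had either sign. An r of at least 0.8 was found in 0.438% of all genes outside the 6. Of 8 tested receptor chains and JAK kinases, 4 lay between -0.3 and 0.3, a band that held 77.2% of the 5704 genes other than the 6. Their median r was -0.005, against -0.012 over those genes. JAK1, the kinase bound to IFNAR2, had an r of -0.199 and values of 7.07 to 7.65 in sialyllactose and 7.14 to 7.77 in control retinas (log2). TYK2, bound to IFNAR1, had the lowest r of the list at -0.494, with an SD of only 0.10. The highest was that of JAK3, a kinase of cytokine receptors in immune cells, at 0.453, followed by IFNGR1, a chain of the interferon gamma receptor, at 0.374. IFNAR2 had an r of 0.272 and IFNAR1 one of -0.316. For JAK2, a kinase of the interferon gamma receptor, the pooled r of -0.063 joined -0.608 in sialyllactose and 0.781 in control retinas. IFNAR1 averaged 0.18 log2 units lower in sialyllactose retinas (limma adjusted p = 0.753), which did not pass the test, although sialyllactose replicate 9 had the highest value of its group by a wide gap. Among the 5 STAT genes other than STAT2, the r ran from -0.161 in STAT5B to 0.332 in STAT3, so that STAT2 had the highest r of its list.

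The list of interferon regulatory factors held 6 tested genes other than IRF7, among them the binding protein IRF2BP1. Of these 6, 1 had an r of at least 0.8, IRF9, the DNA-binding partner of STAT2. That level was reached by 0.438% of the 5704 genes outside the 6 this account is about. IRF9 ranged from 2.20 to 4.30 in sialyllactose and from 2.15 to 3.79 in control retinas (log2), with an r of 0.905 and a slope of 0.34. IRF1, a factor induced by interferon gamma, had an r of 0.756 and ranged from 1.24 to 2.98 in sialyllactose and from 1.83 to 2.997 in control retinas. In contrast, IRF3, the factor that acts ahead of interferon production and is activated by phosphorylation, had an r of -0.361 and IRF2 one of 0.113. IRF8, a factor of myeloid cells, had an r of 0.271. Within the complex that reads type I interferon, IRF9 thus varied with ISG15 by a slope of 0.34 and STAT2 by one of 0.05.

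Of the 19 listed symbols of genes that restrain the pathway, aliases included, 10 had a probe set and 5 passed the level filter. Of these 5, USP18 alone had an r of at least 0.8. The tested phosphatases PTPN2 and PTPN1 had an r of -0.017 and -0.206, the STAT inhibitor PIAS1 one of -0.093, and SOCS6 one of 0.358. The better known feedback inhibitors SOCS1 and SOCS3 were dim, did not pass the level filter and had brightest values of 1.71 and 1.47 in any retina, with an r of 0.368 and -0.304. ARIH1, a ubiquitin ligase on the list of ISG15 conjugation genes, had an r of 0.217 and an SD of 0.08. The enzymes UBA7, UBE2L6 and HERC5, which charge and transfer ISG15, were not analysed here. Of 7 tested nucleic acid sensing genes, 1 had an r of at least 0.8, DDX58, the RNA sensor RIG-I, at 0.906, with 1.85 to 4.67 in sialyllactose and 1.73 to 2.97 in control retinas (log2). The kinase TBK1, which acts below the sensors, had the lowest SD of the list, 0.07, and a pooled r of 0.104 that joined -0.362 in sialyllactose and 0.854 in control retinas. No probe set passed limma's test of a difference in slope between diets.

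Of 40 listed symbols of interferon genes, aliases included, 4 had a probe set and 2 passed the level filter. Neither of these 2 had an r of 0.8 with ISG15. IFNA1 had an r of -0.083, with 2.55 to 2.93 in sialyllactose and 2.48 to 2.88 in control retinas (log2), and IFN-DELTA-1 an r of 0.350. IFNB1 and IFNG did not pass the level filter, and their brightest retinas were at 0.97 and 0.97. Values this low may lie under what the array can detect, so the absence of variation is not shown for them. No gene of any list differed between diets in limma at an adjusted p under 0.05.

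Most of the named genes most like ISG15 were other interferon-induced genes, and LOC733579 among them had only a locus number as its symbol. The 10 highest among genes outside the 6 were MX1 (0.986), EIF2AK2 (0.981), LOC733579 (0.974), ISG12(A) (0.970), IFI44L (0.968), PARP12 (0.962), RSAD2 (0.960), TAP1 (0.957), IFIT3 (0.950) and IFIT1 (0.938), each with its Pearson r over 18 retinas. MX1 is a GTPase and EIF2AK2 a kinase that block viral growth, and TAP1 carries peptides to MHC class I molecules. USP18 at 0.929 and GBP1 at 0.907 were lower than all 10. Of 17 tested antiviral and other effector genes, 9 had an r of at least 0.8, against 25 of the 5704 genes outside the 6 (0.438%), and the median r of the list was 0.876 against -0.012. SAMHD1 at 0.116 and TDRD7 at -0.200, both also known to be induced by interferon, were among those that did not.

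**Figure D4:**
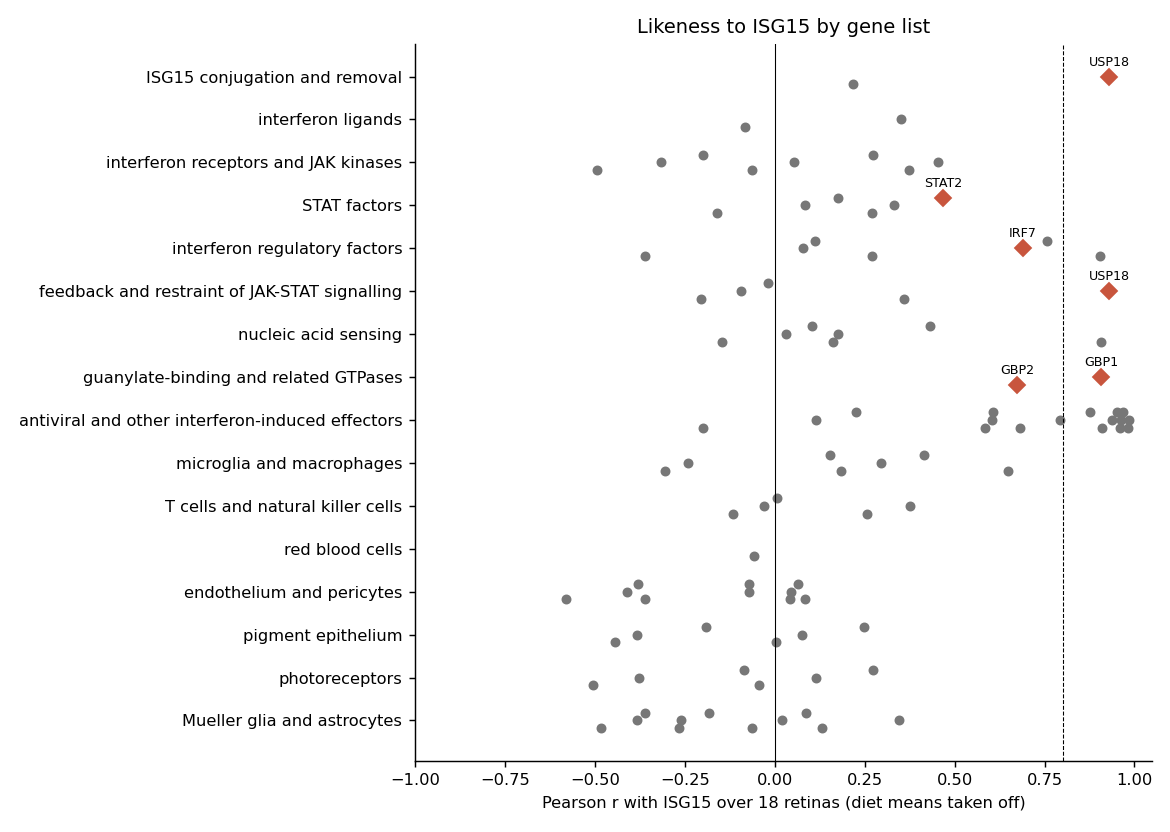
Pearson r with ISG15 over 18 retinas, diet means taken off (x axis), for each tested gene of every list that had one (y axis), at its brightest probe set; diamonds are the genes this account is about, circles other genes, and the dashed line is at 0.8. Interferon-induced effectors crowd to the right, while receptors, kinases, ligands and cell type markers spread around 0.

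The values that could move with ISG15 across retinas were also read. Of 7 tested microglia and macrophage markers, 0 had an r of at least 0.8, and the highest was CTSS, a lysosomal protease, at 0.649. It was followed by C1QC at 0.415, P2RY12 at 0.296, LAPTM5 at 0.183, AIF1 at 0.154, CD14 at -0.242 and SPI1 at -0.306. The summed linear level of the list ran from 37.5 to 51.0 in sialyllactose and from 37.1 to 61.8 in control retinas. The mean log2 value of the list had an r of 0.397 with ISG15, and its part in the results was not tested. For 5 tested T and natural killer cell genes the r ran from -0.117 to 0.377 and the sum from 16.8 to 19.0 in sialyllactose and from 16.3 to 18.1 in control retinas, and CD2, CD3E and CD8A were under the level filter. No B cell or neutrophil marker passed that filter. HBB of red blood cells had an r of -0.057.

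Among markers of the retina itself, the 2 brightest of 6 tested photoreceptor genes were SAG and ARR3. SAG lay at 10.3 to 10.7 in sialyllactose and 10.5 to 10.8 in control retinas, and ARR3 at 9.40 to 10.1 and 9.11 to 10.2 (log2). Their r with ISG15 was -0.378 and -0.043. OPN1SW, GRK7, CNGA1 and PDE6C were dimmer, with means of 5.17, 3.61, 3.33 and 1.65. Over the list the r ran from -0.507 in PDE6C to 0.274 in CNGA1, with a median of -0.064. The r of 11 Mueller glia and astrocyte genes ran from -0.483 in APOE to 0.345 in DKK3 with a median of -0.182, and the mean log2 value of the list had an r of -0.423. That of 10 endothelial and pericyte genes ran from -0.580 in RGS5, a pericyte gene, to 0.083 in VWF with a median of -0.072, and their mean log2 value had an r of -0.376. The part of either list in the results was not tested. For 6 tested pigment epithelium genes the r ran from -0.443 in TYR to 0.247 in MITF, with a median of -0.094. The 2 brightest were RLBP1, also a gene of Mueller glia, with an r of -0.383, and TTR with -0.191. Array measures were read too: the GAPDH difference between 3' and 5' probe sets, a sign of RNA length, lay between 1.25 and 1.74 in sialyllactose and between 1.28 and 1.68 in control arrays with an r of 0.097, and the spike-in controls had an r of 0.041.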

How the data were processed

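The authors deposited 1 log2 value per probe set and array for 18 arrays. Per the submitters' processing notes, these log2 values came from Affymetrix Expression Console and RMA; settings and versions are not given in the sources used here. RMA sets all arrays to 1 distribution and gives no detection call. The file held 24123 probe sets with values from 0.146 to 12.8. Control probe sets (124) and the 30% with the lowest mean over 18 arrays (7200) were left out, which left 16799. Symbols came from the platform annotation: 10069 probe sets not controls had 1 symbol, 198 several and 13732 none listed there. All 6 genes were found by gene ID in the RefSeq table of assembly Sscrofa11.1. That table served for names and for which genes are neighbours. No coordinates are given, because the build behind the array annotation is not given, and no sequences were used.

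Diet differences, differences in spread (absolute deviation from the diet median) and differences in slope on ISG15 were each fitted with limma 3.58.1 in R 4.3.3 (lmFit, eBayes without trend, no covariate beside those named), two-sided, with Benjamini-Hochberg adjustment over all tested probe sets. The fits were tested on simulated data: large level and slope changes were recovered and small ones in part, and spread changes were estimated at their size but passed in no case. The changes were set on randomly drawn probe sets with independent noise. Their recovery therefore does not show what could be detected for genes as variable as ISG15, USP18 and GBP1. Likeness is Pearson's r after subtracting each diet's mean, with no test. Arrays correlated between 0.981 and 0.992, and 0 pairs were identical. Shared replicate numbers were not used to pair the samples in the main fits. The correlation of same-numbered deviations exceeded 0.1 in 3 of 9 pairs (-0.113 to 0.164). It was not compared with that of differently numbered arrays, so it cannot decide whether the numbers mark pairs. The number of arrays limits the precision.

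The members and lists were chosen with earlier results of these data known. Named by rule were the 6 genes, the 10 most and 3 least like ISG15, the 6 brightest tested genes of each pathway list with any at an r of 0.8 or more, and the 2 brightest of each marker list; list extremes, dim genes and markers beyond the brightest given beside them were picked after their values were seen. The alternatives are in the closing section.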

Additional observations from a re-analysis of the deposited data

Results flagged for a closer look

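None of the 18 sets of 9 values from the 9 probe sets of ISG15, USP18, IRF7, STAT2, GBP1 and GBP2 held a retina that stood apart from the rest of its diet group by Dixon's criterion at the 95% level. Over these and the other genes named, 9 of 138 such sets did, where chance gives about 1 in 20. Control replicate 2 stood apart in 4 of them: low in ARIH1 at 6.33 (others from 6.49) and PDGFRB at 4.85 (others from 5.28), and high in IRF3 at 6.01 (others to 5.67) and IRAK1 at 5.75 (others to 5.53), all log2. Control replicate 3 did in 2, low in TYK2 at 5.35 (others from 5.52) and high in STAT3 at 5.72 (others to 5.28). Control replicate 9 was high in JAK1 at 7.77 (others to 7.41), sialyllactose replicate 9 in IFNAR1 at 4.76 (others to 4.46) and sialyllactose replicate 1 in TTR at 8.09 (others to 6.82).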

How the results depend on the processing

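The counts of probe sets that passed in limma stayed at 0 for level, spread and slope under no level filter, a 50% filter, median centring, quantile normalization, an intensity trend with a robust prior and the replicate block; the exact rank-sum test also gave 0 for level (918 at an unadjusted p under 0.05), and deviations from the mean gave 0 for spread. With 1 array left out the counts ran from 0 to 0 for level, 0 to 1 for spread and 0 to 1 for slope, the single calls coming without control replicate 2 and without control replicate 8. The number of probe sets with an r of at least 0.8 was 53, between 48 and 57 with 1 array left out, 130 in sialyllactose arrays only and 123 in control arrays only, 9 arrays each. With the replicate block the slope difference turned to -0.0832 for STAT2 and -0.0896 for GBP2; it changed no call. The spread difference of USP18, -0.00235, turned to 0.00282 with quantile normalization and 0.0194 from the mean, and that of STAT2 to 0.00668 from the mean. The dimmest GBP1 probe set gave 0.10 for level and 0.0552 for spread. For IRF7 the dim probe set gave -0.0238 for spread, -0.116 for slope and -0.037 for r, and the mean of both probe sets -0.0132 for spread and -0.0385 for slope. With 1 array left out, the level difference of ISG15 was lowest at -0.42, with sialyllactose replicate 7 omitted, and highest at 0.24, with control replicate 3 omitted; that of USP18 was -0.30 and 0.13 with the same arrays omitted; slope differences spanned -0.00252 to 0.0956 for GBP2 and -0.0187 to 0.0373 for STAT2, and spread differences -0.0445 to 0.0137 for STAT2 and -0.165 to 0.161 for USP18. Without a change of sign, level differences spanned -0.60 to -0.12 for GBP1, -0.188 to -0.0232 for GBP2, 0.132 to 0.247 for IRF7 and 0.0516 to 0.135 for STAT2, and slope differences -0.433 to -0.268 for GBP1, -0.247 to -0.0308 for USP18 and 0.00862 to 0.0616 for IRF7. Spread differences likewise spanned 0.0541 to 0.641 for ISG15, -0.514 to -0.106 for GBP1, 0.0870 to 0.183 for GBP2 and 0.0779 to 0.148 for IRF7. The cause of these turns was not tested. The precision for dim probe sets such as those of IRF7 and GBP1 is limited by signal near the array's floor.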

Other observations

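Of the 53 tested probe sets with an r of at least 0.8 with ISG15, 34 had 1 gene symbol (30 genes), 1 had several and 18 had none in the annotation used.

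At the other end, 1 tested probe set had an r of -0.8 or lower, that of ABCG2, an efflux transporter of the blood-retinal barrier, at -0.825 (-0.829 in sialyllactose and -0.843 in control retinas). It ranged from 4.55 to 5.20 in sialyllactose and from 4.43 to 5.08 in control retinas (log2), with a slope of -0.11. SPARCL1, an extracellular matrix protein, followed at -0.790 (-0.906 in sialyllactose and -0.557 in control retinas) and C4H8orf33 at -0.757. RGS5 had an r of -0.929 in sialyllactose and of 0.277 in control retinas, and no probe set passed limma's test of a difference in slope.

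The dim IRF7 probe set ran against ISG15 in sialyllactose retinas (r = -0.767, slope -0.04) and with it in control retinas (r = 0.775, slope 0.08). The slope difference of -0.12 had an unadjusted limma p of 0.00224 and an adjusted p of 0.629 over all probe sets not controls. All of its values lay between 0.61 and 1.07, near the lowest in the file. Among pathway genes under the level filter, PLAC8 ranged from 0.97 to 2.59 in sialyllactose and from 0.76 to 1.98 in control retinas. ZBP1, a nucleic acid sensor, ranged from 0.89 to 1.64 and from 0.75 to 1.20. The r of these dim genes with ISG15 ran from -0.390 in PTPN6 to 0.929 in PLAC8, and was 0.750 in ZBP1.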
